A study of Mus musculus with 11 samples.

Results

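Bcl11b and the chromatin beyond its 3′ end were examined as a window of mouse chromosome 12 from 108200000 to 109300000 (build mm9). Every called peak of the window was taken, which gave 187 peaks of 120616 in 6 lists. The window was chosen by position, with no measured value. Bcl11b lies at about 109.15 to 109.24 Mb, an approximate extent, and the rest of the window runs away from the 3′ end of the gene. The lists come from chromatin immunoprecipitation and sequencing (ChIP-seq) of CD4+ CD8+ double positive thymocytes, a stage of T cell development, sorted from mice 6 weeks old. In the Rad21 -/- (KO) mice a floxed Rad21 allele was deleted by Cre under Cd4 control, so the loss is limited to cells that have switched on Cd4. The wild type (WT) animals were littermates, and whether they carried Cre or floxed alleles is not given in the sources used here. Acetylated lysine 27 of histone H3 (H3K27ac) was mapped in 2 KO and 2 WT libraries, and Smc1a in 2 WT libraries.

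Bcl11b encodes a zinc finger transcription factor that mouse T cell precursors need to commit to the T lineage and to keep that identity. The gene is known for its dependence on an enhancer stretch far beyond its 3′ end in mouse T cells. H3K27ac marks active promoters and enhancers. Rad21 and Smc1a are both subunits of the cohesin ring, which holds distant stretches of a chromosome together in loops.

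In the order of RefSeq genes (GRCm38.p6), the neighbours of Bcl11b on its 3′ side are the lncRNA genes Gm33341, 4930465M20Rik and Gm33236 and the pseudogenes Gm9006 and Gm17052. The next protein-coding gene on that side is Gm52008, and on the start side it is Setd3. This order holds no mm9 positions, so it does not show which of the neighbours lie in the window. Peaks outside the gene extent are given by position and were not assigned to any gene.

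The promoter of Bcl11b is shown because the start end of the gene lay in one of the longest acetylated regions and beside the Smc1a site ranked second in the window. It is the RefSeq entry of chr12:108003365-108003664 in GRCm38.p6, on the minus strand, 250 bases before to 50 after the annotated start. Those coordinates belong to another build than the peaks and were not converted. Capitals mark the 4 matches to the motifs searched.
Bcl11b promoter: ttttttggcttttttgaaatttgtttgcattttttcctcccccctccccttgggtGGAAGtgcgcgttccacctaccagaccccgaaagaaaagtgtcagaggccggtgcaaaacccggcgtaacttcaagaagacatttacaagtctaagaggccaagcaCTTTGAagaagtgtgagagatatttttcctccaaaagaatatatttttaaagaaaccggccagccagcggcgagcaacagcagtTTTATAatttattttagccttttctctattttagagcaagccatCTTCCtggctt

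Counted from 1 at the 5′ end, GGAAG (an ETS-type core) matched at bases 56 to 60 and, on the other strand, at 290 to 294. CTTTGA (a TCF/LEF-type core) matched at 162 to 167, and TATAAA matched on the other strand at 246 to 251. None of these matches overlapped another. Over all 32851 promoter entries, searched on both strands, 71.4% hold GGAAG, 16.0% CTTTGA and 13.6% TATAAA. No match was found in this promoter entry for GATAA (held by 25.4% of entries), TGTGGT (16.8%), TGCGGT (6.45%), CANNTG (72.3%), GGGCGG (35.7%) or CCAAT (37.4%).

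Each list is the authors' own set of peak calls for a single library, with a start, an end and the peak caller's score. Depth is unknown, so the lack of a call at some place does not show that acetylation was absent there. The lists hold 19503 and 20244 H3K27ac peaks for KO and 21973 and 15686 for WT, covering 52.7 and 47.6 Mb in KO and 56.3 and 45.6 Mb in WT libraries. WT replicate 1 thus has the longest list and WT replicate 2 the shortest. The labels do not say that replicates came from separate mice, so p-values measure the spread between these libraries, which may be technical. With 2 libraries against 2 no two-sided exact test can give a p below 0.333. Peak lists hold neither expression levels nor Rad21 sequence counts, so neither the cell type nor the deletion could be checked in them. In sorted populations, fewer acetylated cells and less acetylation per cell cannot be told apart.

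Acetylation in the window formed 3 long regions and a scatter of short ones. Merging overlapping H3K27ac peaks of the 4 lists gave 38 regions, of which 34 lay wholly below the gene extent. All 4 lists called 12 of them (31.6%), against 49.6% of all acetylated regions of the genome, and 11 were called in WT replicate 1 alone (28.9%, against 10.5%). The region from 109195032 to 109245568, which holds the start end of Bcl11b, ranked 8 in length among the 24430 acetylated regions of the genome. The region from 108355366 to 108401760, called the distal block here, ranked 9 and ended 748 kb below the gene extent. The third, from 109154464 to 109190065 in the 3′ part of the gene, ranked 23.

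**Figure D1:**
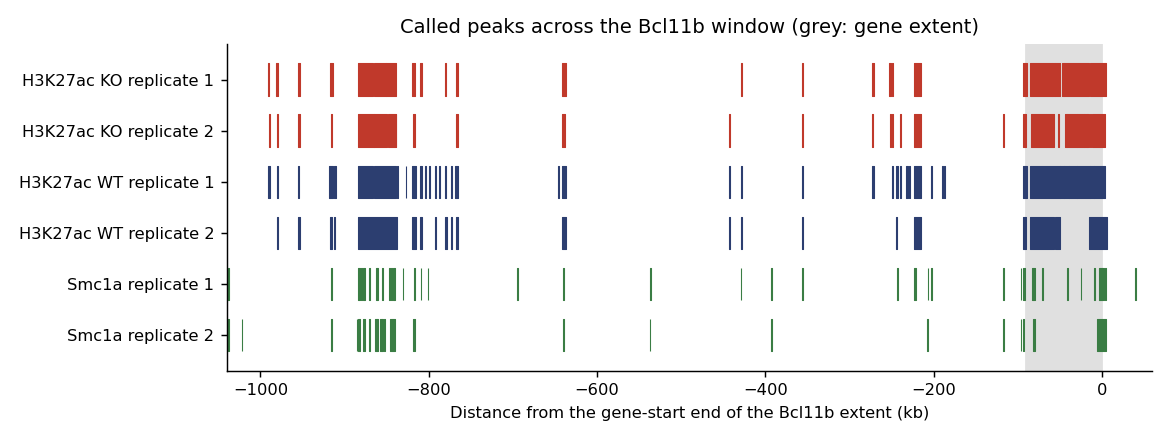
Peaks called in the 6 lists, drawn as bars against the distance in kb from the start end of the gene extent (negative values run beyond the 3′ end, grey marks the gene extent). All 4 H3K27ac lists show the distal block and the gene as the broadest stretches, and WT replicate 1 has the most short peaks between them.

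The distal block was called over nearly its whole length in both genotypes. Peaks covered 44524 and 45215 bp of it in the KO libraries, against 45099 and 46293 bp in the WT libraries. The groups overlapped, and the means differed by -826.5 bp. The best peak of the block stood at percentiles 99.7 and 99.6 of the KO lists, against 99.6 and 94.2 of the WT lists. A score of exactly 3100.00 is shared by 1092 and 1245 peaks of the KO lists and by 1455 and 746 peaks of the WT lists, so peaks tied there cannot be ranked and equal scores do not show equal signal. Its outer edge was placed within 112 bp in the 4 libraries, and its inner edge within 1083 bp. The caller reported the block as 3 and 4 peaks in KO and as 2 and 1 peaks in WT lists. No gap between those peaks was longer than 590 bp in KO replicate 1, 526 bp in KO replicate 2 and 627 bp in WT replicate 1.

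Outside the block, both KO lists called less acetylation in total than either WT list in the stretch beyond the gene. Over the whole stretch below the gene extent, peaks covered 88871 and 78806 bp in KO, against 115982 and 91753 bp in WT libraries. Both KO values lay below both WT values. The means were 83838.5 ± 7117.0 bp in KO and 103867.5 ± 17132.5 bp in WT libraries (SD, n = 2 each), a difference of -20029 bp (two-sided exact permutation test, p = 0.333, the smallest possible). As a share of all acetylated bases of each library, the stretch took 0.169% and 0.166% in KO and 0.206% and 0.201% in WT libraries, again with no overlap (difference -0.0365 percentage points, exact permutation p = 0.333). Without the distal block the stretch held 44347 and 33591 bp in KO, against 70883 and 45460 bp in WT libraries, a difference of -19202.5 bp. The size rested on the WT libraries, with a difference of -7914.5 bp without WT replicate 1 and -32143.5 bp without WT replicate 2.

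The largest part of that difference lay beside the block, on the side of the gene. The 11 regions between 108402532 and 108474838 together held 8842 and 4859 bp in KO libraries, against 21461 and 13563 bp in WT libraries. The KO lists called 4 and 2 of these 11 regions, and the WT lists called 11 and 6. Over all regions of the genome, the KO lists called 74.9% and 75.7% and the WT lists 84.4% and 60.3%. Several of the 11 were called in WT replicate 1 alone, the longest list, and others in the WT lists alone. Those regions joined the set only through WT peaks, so part of the lower KO count follows from how the set was formed. This flank made up 53.2% of the mean difference over the stretch below the gene. The other groups of regions each made up less, with 13.9% on the outer side of the block, 14.7% between 108593042 and 108884741 and 14.1% nearer the gene, against 4.13% for the block itself. On the outer side of the block the KO libraries held 8973 and 6255 bp and the WT libraries 12453 and 8332 bp. Nearer the gene the KO libraries held 19322 and 16898 bp and the WT libraries 27373 and 14483 bp, so the genotypes overlapped in both places. Between 108593042 and 108884741 they did not, with 7210 and 5579 bp in KO and 9596 and 9082 bp in WT libraries. These groups of regions were drawn after the values were seen, so their shares are a description.

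**Figure D2:**
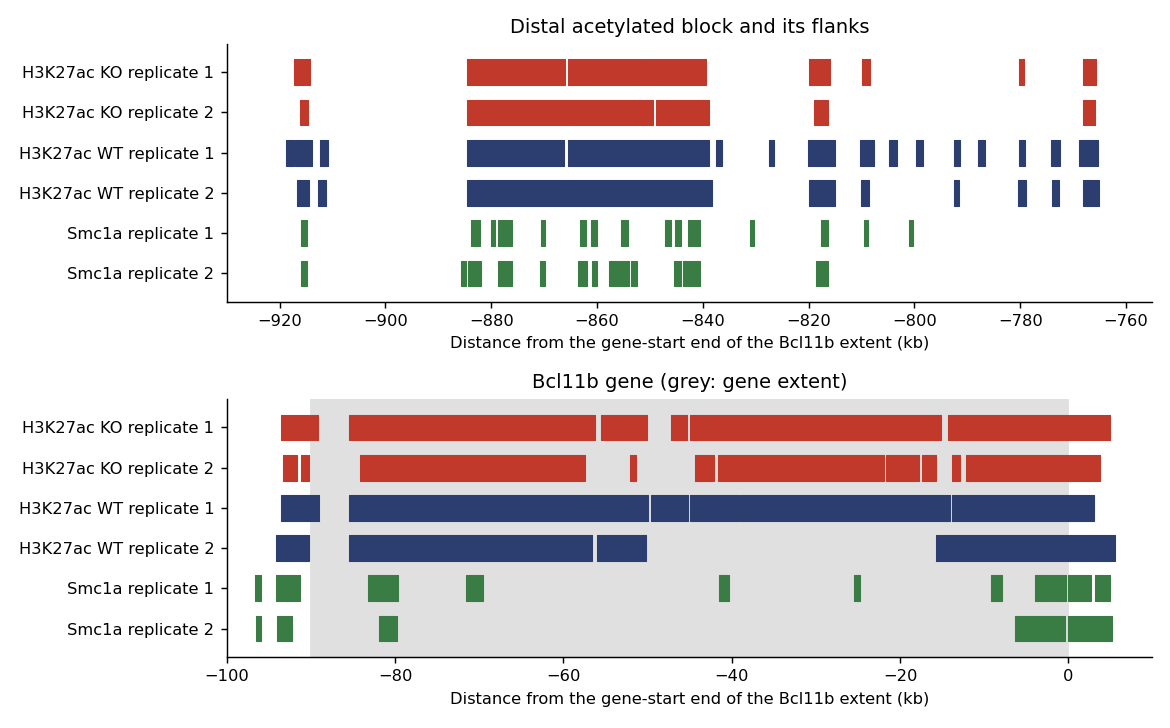
Peaks of the 6 lists around the distal block (upper panel) and over Bcl11b (lower panel), with distance in kb from the start end of the gene extent on the horizontal axis and the narrowest gaps too small to see. The block spans the same stretch in KO and WT lists, and WT replicate 2 has no peak in the middle of the gene. The flank to the right of the block holds peaks at 4 and 2 of its 11 regions in KO and at 11 and 6 in WT lists. Over all regions the KO lists called 74.9% and 75.7% and the WT lists 84.4% and 60.3%.

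The strongest region of the flank lay from 108419875 to 108425023. It was covered over 3902 and 2591 bp in KO and over 5124 and 4941 bp in WT libraries. Its scores were at percentiles 84.1 and 58.1 of the KO lists, against 99.7 and 89.5 of the WT lists. The KO peaks were shorter and ranked lower in their lists, with no overlap between the groups in either measure. A reproducible Smc1a site, meaning 1 called in both Smc1a lists, lay inside it.

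At the inner end of the flank, from 108471087 to 108474838, peaks covered 2621 and 2268 bp in KO and 3527 and 3043 bp in WT libraries. The scores there were at percentiles 54.5 and 49.7 of the KO lists, against 68.0 and 72.4 of the WT lists. This region held no reproducible Smc1a site.

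Regions called in both WT lists and in neither KO list numbered 4 of 38 (10.5%), against 2.33% of all acetylated regions. They lay at 108327266 to 108329220, 108447416 to 108448633, 108465860 to 108467548 and 108995125 to 108997086. All 4 were short and weakly scored, with at most 1962 bp covered and a best score percentile of at most 37.3 in a WT list. The first lies on the outer side of the block, the next pair is part of its flank, and the last lies 153 kb below the gene extent. A single region, from 108986807 to 108989348, was called in both KO lists and in neither WT list (2.63%, against 2.82% of all regions). It was covered over 2542 and 709 bp in KO libraries, with score percentiles of 16.2 and 5.85. Without WT replicate 2, 15 regions had a WT call and no KO call, against 13.4% of all regions in the same comparison, and without KO replicate 1 there were 7, against 5.12%.

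In 12 of 38 regions (31.6%) both KO libraries had a shorter called length than either WT library, against 15.9% of the 24430 regions of the genome. Called length was higher in both KO libraries in 1 region (2.63%), against 17.0%. Dividing by the covered length of each library gave 9 lower and 2 higher regions, against 12.2% and 17.2% of all regions. Of the 12 lower regions, 11 lay below the gene extent, as did 34 of all 38 regions (89.5%). Lower regions were thus 32.4% of the 34 below the gene extent and 25.0% of the 4 that overlap it, so their count does not set the distal stretch apart. Among the 12 regions called in all 4 lists, 5 were lower (41.7%, against 22.9% of such regions) and 0 higher (against 17.4%). The median difference, KO minus WT, was -728 bp in these 12 regions, against -41.5 bp over all 12129 regions called in 4 lists, and their median lengths were 5097.5 and 2922 bp. The count of lower regions depended on WT replicate 2, without which it was 30, against 43.2% of all regions.

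The same count was made over fixed 50 kb bins, which need no merging of peaks. Of the 17 bins of the window with any acetylation, 8 were lower in both KO libraries and 0 higher, against 15.4% and 21.6% of the 12511 acetylated bins of the genome. After division by the covered length of each library, 5 were lower and 1 higher, against 14.0% and 23.4%. Among the lower bins, those from 108550001 to 108600000 and from 108600001 to 108650000 share the region from 108598268 to 108603578. The lengths of that region as a whole overlapped between genotypes. Some margins were narrow, as in the bin from 109100001 to 109150000, with 3468 and 3476 bp in KO and 3500 and 3914 bp in WT libraries. The largest negative difference was in the bin from 108400001 to 108450000, with 5965 and 3820 bp in KO and 15018 and 9389 bp in WT libraries. The next bin, to 108500000, had 3554 and 2268 bp in KO and 7646 and 5934 bp in WT libraries. The bin ranked next, from 109150001 to 109200000 in the gene, had 42341 and 31392 bp in KO and 45761 and 34803 bp in WT libraries, with overlapping groups. The bins with a positive mean difference were those from 109200001 to 109250000 in the gene (10325 bp), 108950001 to 109000000 (1166.5 bp) and 108200001 to 108250000 (107.5 bp), and the groups overlapped in each. In the first of these the KO libraries had 44027 and 40552 bp and the WT libraries 42672 and 21257 bp, the low value being that of WT replicate 2.

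**Figure D3:**
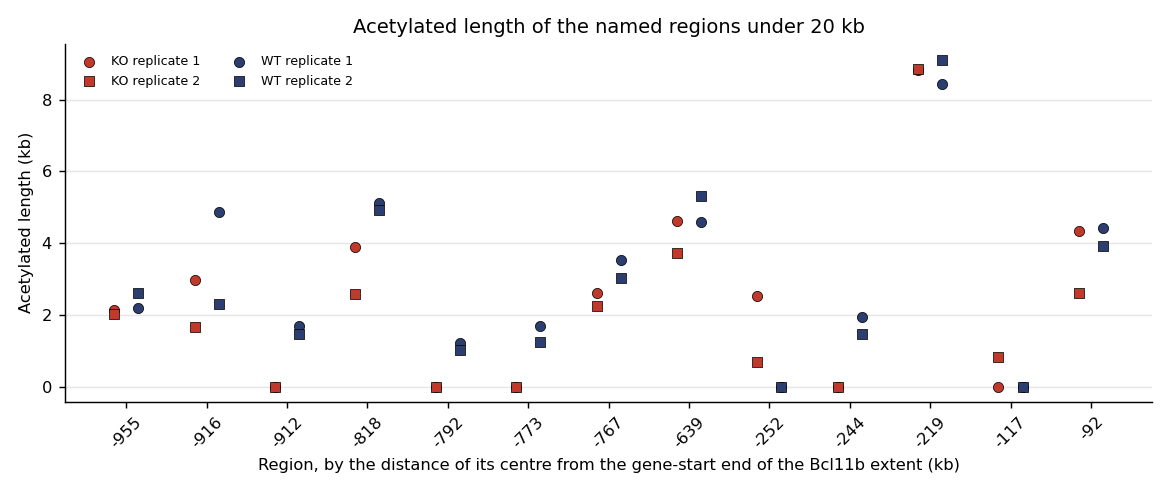
Acetylated length in kb of the named regions under 20 kb, ordered by distance from the start end of the gene extent, with KO libraries as red and WT libraries as blue symbols (circles for replicate 1, squares for replicate 2). KO symbols lie below WT symbols in 7 of these regions, including the 4 called in WT lists alone, and above them in 1, called in KO lists alone. Regions called in 1 genotype alone were named for that reason, so their order was fixed by the choice. These counts therefore cannot be set against the 15.9% lower and 17.0% higher among all regions.

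Not every short region between the block and the gene followed that pattern. Called length in the region from 108598268 to 108603578 was 4621 and 3732 bp in KO and 4581 and 5311 bp in WT libraries, so the groups overlapped in length. Its scores were at percentiles 91.2 and 90.3 of the KO lists, against 99.6 and 99.7 of the WT lists, where they were tied at 3100.00. The region from 109016107 to 109025456, the fourth longest of the window and 125 kb below the gene extent, had 8830 and 8851 bp in KO and 8434 and 9091 bp in WT libraries. Its scores were at percentiles 99.7 and 99.6 of the KO lists, against 99.6 and 94.2 of the WT lists, and all but that of WT replicate 2 were tied at 3100.00. On the outer side of the block, the region from 108321177 to 108326160 had 2980 and 1671 bp in KO and 4883 and 2327 bp in WT libraries, and that from 108284039 to 108286667 had 2135 and 2041 bp in KO and 2213 and 2629 bp in WT libraries. The groups overlapped in the first of these and not in the second.

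Over the Bcl11b gene itself the values of the genotypes overlapped. Peaks covered 81471 and 68155 bp of the gene extent in KO, against 85411 and 50492 bp in WT libraries, so the WT values lay on either side of the KO values. The means were 74813 ± 9415.8 bp in KO and 67951.5 ± 24691.5 bp in WT libraries (SD, n = 2 each; difference 6861.5 bp, exact permutation p = 1). Without WT replicate 2 the difference was -10598 bp, and without WT replicate 1 it was 24321 bp. WT replicate 2 had no peak between 109189843 and 109224311, a stretch of 34469 bp that was covered to 90.4% and 80.2% in KO libraries and to 97.9% in WT replicate 1. Outside that stretch, which was singled out after the values were seen, the gene held 50311 and 40511 bp in KO and 51657 and 50492 bp in WT libraries, a difference of -5663.5 bp with no overlap.

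In the 3′ part of the gene, the region from 109154464 to 109190065 had 34656 and 27397 bp called in KO and 35526 and 34803 bp in WT libraries. Both KO values were lower, by a narrow margin in KO replicate 1, and KO replicate 2 had an uncalled gap of 5337 bp there. The region at the start end was covered over 48996 and 44547 bp in KO, against 47606 and 21257 bp in WT libraries. Its part from 109224312 to 109245568, which all 4 lists called, held 19716 and 16903 bp in KO and 18438 and 21257 bp in WT libraries, so the groups overlapped. Just beyond the 3′ end, the region from 109145893 to 109150938 had 4352 and 2626 bp in KO and 4438 and 3914 bp in WT libraries, with score percentiles of 20.8 and 18.8 in KO lists and 67.4 and 49.7 in WT lists.

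The change was then compared between the gene and the stretch beyond it, through the share of the window's acetylated bases that lay in the gene. That share was 46.5% and 45.2% in KO, against 41.8% and 34.2% in WT libraries (difference 7.88 percentage points, exact permutation p = 0.333). It came to 4.07 points without WT replicate 2. With the stretch uncalled in WT replicate 2 left out, the shares were 34.9% and 32.9% in KO and 30.3% and 34.2% in WT libraries, which overlapped (difference 1.70 points, exact permutation p = 0.667). Over the whole window, gene and distal parts together, KO libraries held 175240 and 150750 bp and WT libraries 204416 and 147813 bp (difference -13119.5 bp, exact permutation p = 1). That difference was 15182 bp without WT replicate 1, -41421 bp without WT replicate 2, -25364.5 bp without KO replicate 1 and -874.5 bp without KO replicate 2. As a share of all acetylated bases of each library the window took 0.333% and 0.317% in KO and 0.363% and 0.324% in WT libraries, which overlapped (difference -0.0189 percentage points, exact permutation p = 0.667). It held 26 and 31 peaks in KO and 43 and 21 peaks in WT lists (difference -3.5 peaks, exact permutation p = 1), and both of these differences were above 0 without WT replicate 1, at 0.000636 points and 7.5 peaks.

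**Figure D4:**
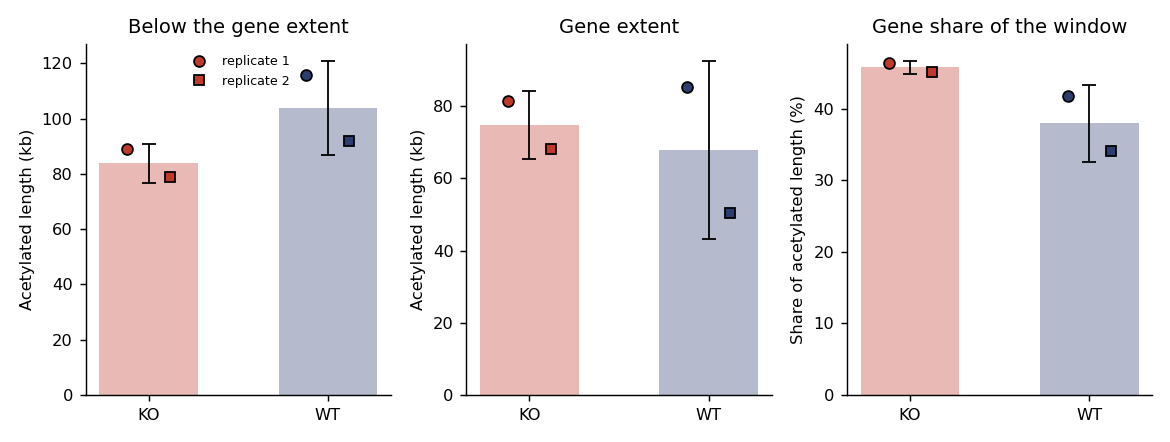
Acetylated length below the gene extent and in the gene extent (kb), and the share of the window's acetylated length that lies in the gene (%), with bars for means, error bars for SD and symbols for the libraries (n = 2 each). Below the gene extent both KO values (88871 and 78806 bp) lie under both WT values (115982 and 91753 bp), while in the gene extent the WT values lie on either side of the KO values.

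Smc1a in WT cells was most concentrated in the distal block and at the start end of the gene. Of 43 Smc1a regions in the window, 21 were called in both replicates, 17 in replicate 1 alone and 5 in replicate 2 alone. Taken singly, the lists held 40 peaks (replicate 1) and 26 peaks (replicate 2) in the window. The distal block held 8 of the 21 reproducible sites, and these covered 31.6% of its length. The longest region of the gene, at its start end, held 2. Of the 21 sites, 15 (71.4%) fell within acetylated regions shared by both WT lists, against 22.0% of the 14848 reproducible sites of the genome. Since 8 of those 15 share the distal block, they are not separate examples.

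The highest-scoring site of the window lay at the outer edge of the block, from 108355508 to 108358134, and began 142 bp from the first acetylated base of the block. Its scores of 1252.65 and 1080.09 were at percentiles 98.4 and 99.4 of the Smc1a lists. The site ranked second lay at the start end of Bcl11b, from 109233701 to 109239753, with scores of 896.57 and 632.36 at percentiles 95.3 and 96.6. These sites lie 876 kb apart. A further site adjoins the one at the gene from 109239993 to 109245163, at percentiles 88.1 and 65.6. Smc1a was mapped in WT cells alone, so none of these sites can be compared between genotypes.

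Next in rank was the site from 108324093 to 108325123, in an acetylated region on the outer side of the block, at percentiles 95.1 and 84.9. The fourth lay in the block from 108361274 to 108363988, at percentiles 85.2 and 87.0. The fifth, from 108847083 to 108847801, lay 302 kb below the gene extent and 35.1 kb from the nearest acetylated region, at percentiles 80.7 and 83.6. Sites in the 3′ part of the gene were weak by comparison, with percentiles of 25.2 and 24.5 for that from 109157652 to 109160322. Between the block and the gene, 184.7 kb without a reproducible site was the longest such gap, and 5 of the 21 sites in the whole window touched no acetylated region.

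**Figure D5:**
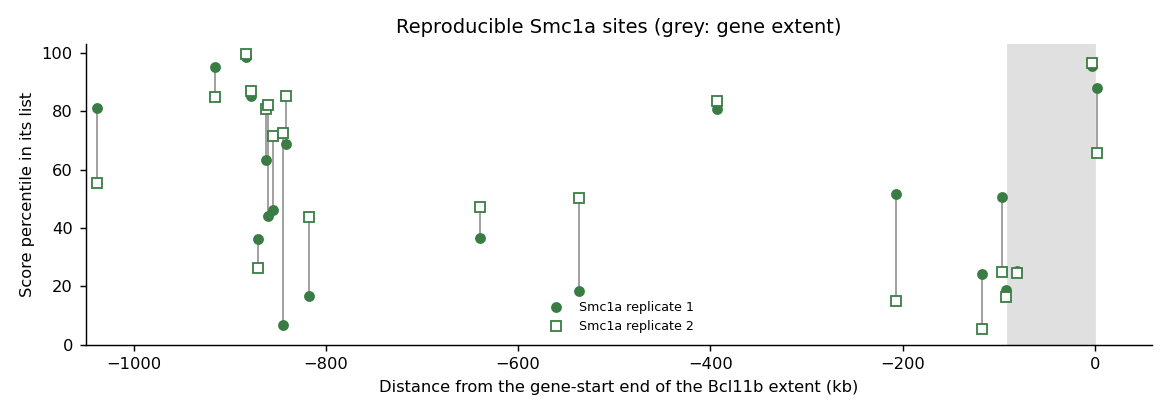
Score percentile of the 21 reproducible Smc1a sites in the list of each replicate (filled circles, replicate 1, and open squares, replicate 2), against the distance in kb from the start end of the gene extent (grey). The highest sites stand at the outer edge of the distal block (percentiles 98.4 and 99.4) and at the start end of the gene (95.3 and 96.6), with weaker sites between.

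Acetylated regions that held a reproducible Smc1a site numbered 8 of 38 (21.1%), against 14.0% of all regions. With the list of Smc1a replicate 1 taken alone, 14 held a peak. That list has 40 peaks in the window, and its share over all regions is not given, so the 14 cannot be set against 14.0%. Of the 12 regions called in all 4 lists, 7 held a site (58.3%, against 20.3% of such regions). A longer region has more room for a site, and the median lengths of these sets were 5097.5 and 2922 bp. No comparison at equal length was made. The remaining region with a site, from 109122475 to 109123324, was called in KO replicate 2 alone, over 850 bp. Length in both KO libraries was below that in both WT libraries in 2 of the 8 regions with a site (25.0%, against 30.1% of all regions with a site). The same held for 10 of the 30 regions without a site (33.3%, against 13.5%). Those 10 include the 4 regions called in WT lists alone, which are lower by definition. Among the 10, the regions starting at 108429801, 108883380 and 108995125 held a peak of Smc1a replicate 1 and none of replicate 2. The last of these is also 1 of the 4 called in WT lists alone. In the flank of the distal block, 1 of the 11 regions held a reproducible Smc1a site, that from 108419875 to 108425023.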

How the data were processed

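H3K27ac was mapped in 2 KO and 2 WT libraries and Smc1a in 2 WT libraries. The 5 input libraries were not analysed here. The submitters' processing notes name Bowtie 0.12.8 and the build mm9. The authors deposited 1 list per library, with starts, ends and a score per peak, and its peaks have MACS names. Caller settings and the input used for each list were not given. Scores are given as percentiles within their own list (the share of its peaks with the same or a lower score), and for the Smc1a sites also as deposited. Depth is unknown.

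All steps used Python 3.11.15, numpy 2.4.6 and pandas 2.3.3, in functions tested on simulated data. Overlapping or touching H3K27ac peaks were merged over 4 lists, and a list held a region with at least 1 bp of overlap. Differences are KO minus WT, with two-sided exact permutation tests over libraries, and counts are set beside the same counts over the genome. Named were the 10 regions with the greatest mean covered length, those called in 1 genotype alone, those with a Smc1a site, the 5 highest Smc1a sites by mean percentile and the 3 bins with the largest difference each way. The members, lists and tests were chosen with earlier results of these data known. No 2 lists held an identical peak. Alternatives were the upper 75% of scores, equal peak numbers, each library left out, the replicate block, merging within 1000 bp, 50% overlap, 100 kb bins, scaling, single Smc1a replicates and a 10 kb window around regions.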

Additional observations from a re-analysis of the deposited data

How the results depend on the processing

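For 15 results, 115 alternative values were computed, of which 5 had the opposite sign and 81 left the direction, or the count within 1.5 times, as it was. The lower distal length in KO libraries kept its direction in all alternatives run. Leaving out a library or pairing by replicate number could not reverse it, since both KO values lay below both WT values. The distal length difference was -15843 bp with the upper 75% of scores and -17063 bp with equal numbers of peaks. With single libraries left out it moved from -32143.5 to -7914.5 bp, the window length from -41421 to 15182 bp, the gene length from -10598 to 24321 bp, the window's share of the library from -0.0384 to 0.000636 percentage points, the gene share from 4.07 to 11.7 points and the peak number from -14.5 to 7.5. Without the stretch uncalled in WT replicate 2 the gene length difference was -5663.5 bp. That alternative, the distal length as a share of the library and the distal length without the block were chosen after seeing the data. Left-out libraries gave 13 to 30 lower regions and 2 to 5 higher regions. They gave 4 to 15 regions of WT lists alone and 1 to 4 of KO lists alone. Bins numbered 9 to 11 lower and 0 to 5 higher, with 26 to 40 Smc1a sites and 8 to 14 regions with a site. The window then held 29 to 40 regions and 16 or 17 acetylated bins. Dropping a library also loosens these calls over the genome, with 43.2% of all regions lower without WT replicate 2. Shares over the genome are not given for most settings of this section, so its counts describe only how far the calls moved.

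The upper 75% of scores left 24 regions in the window, with 0 higher, 2 of WT lists alone, 0 of KO lists alone, and 13 Smc1a sites. Equal numbers of peaks (25 regions in the window) and merging within 1000 bp (33 regions) each gave 0 higher regions and 0 of KO lists alone. The 50% overlap rule also gave 0 regions of KO lists alone. Scaling gave 2 higher regions, 5 lower bins and 1 higher bin, and 100 kb bins gave 5 lower of 11. A site lay within 10 kb of 15 regions (39.2% of all regions). With the replicate block there were 15 lower and 3 higher regions, 10 lower and 3 higher bins, and a distal difference of -20029 bp (exact sign-flip permutation p = 0.5, the smallest possible). The correlation of the deviations of same-numbered libraries was 0.0283 over all 24430 regions and 0.440 over the 38 of the window. With 2 pairs and no shared litter or batch in the labels, the replicates were taken to share only a number. The cause of these changes was not tested, and unknown depth limits all missing calls.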
